A study of Arabidopsis thaliana with 12 samples.

Results

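The genes described here are 9 nuclear genes for enzymes of the Calvin cycle, of photorespiration and of chloroplast CO2 supply. The list was made by name from the 35651 genes in the count tables, with earlier results of these data known. They are *RCA* (Rubisco activase, AT2G39730), *GAPA* (a subunit of chloroplast glyceraldehyde-3-phosphate dehydrogenase, AT3G26650), the plastid aldolase genes *FBA1* (AT2G21330) and *FBA2* (AT4G38970), *PRK* (phosphoribulokinase, AT1G32060), *CA1* (chloroplast carbonic anhydrase, AT3G01500), *GOX1* (glycolate oxidase, AT3G14420), *SHM1* (mitochondrial serine hydroxymethyltransferase, AT4G37930) and *CAT2* (peroxisomal catalase, AT4G35090).

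In the Calvin cycle, Rubisco fixes CO2 onto ribulose bisphosphate in the chloroplast stroma, and the following enzymes reduce the product to sugar phosphates and rebuild the acceptor. When Rubisco takes up O2 instead, the glycolate that forms is recycled through peroxisomes and mitochondria, which is called photorespiration. The genes of both pathways are known as abundantly transcribed genes of green tissue, and many of them are known to respond to light.

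The study asked how loss of the paralogous CDCA7 proteins, partners of the chromatin remodeler DDM1, acts on DNA methylation and transcription with and without linker histone H1. RNA-seq covered 12 libraries from *Arabidopsis thaliana* seedlings of the Col-0 ecotype, all 14 days old, in 4 sets of 3. All were grown with 16 h of light and 8 h of dark per day. Each replicate was a single seedling, so values within a set include differences between individual plants. Both *cdca7* genes carry CRISPR mutations, described as inserted bases for the lines with H1 and only as mutations for the quadruple mutant. The *h1* mutations are T-DNA insertions.

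The genotype of most libraries is in conflict between the labels. By sample titles the sets are Col-0, *cdca7a cdca7b*, *h1.1 h1.2* and the quadruple mutant *h1.1 h1.2 cdca7a cdca7b*. By the names of the deposited tables, the libraries titled Col-0 are *h1.1 h1.2*, those titled *cdca7a cdca7b* are Col-0, and those titled *h1.1 h1.2* are *cdca7a cdca7b*. The conflict covers 9 libraries, while the quadruple mutant has the same name in both, and the genotype field of the labels says Col-0 for all 12. Sets are called by their titles below, and each comparison is also given as the table names would read it. The targeted genes had 0 to 21 reads in every library, which was too few to check either naming.

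All values are numbers of reads that the authors' counting assigned to a gene, and these were a small part of each library. Of 25236235 to 43462077 reads processed per library, 97.6% to 98.4% were assigned to no feature and 450869 to 833911 to genes. The library kit keeps the strand of the RNA, and the strand option of the counting is not given in the sources used here. Of the 100 genes with the most reads, 94 overlapped a gene on the other strand in the TAIR10.1 annotation, against 22.4% of all 34879 annotated genes and 8.44% of the 11965 genes with 0 reads. For that reason a value below is the number of reads counted on a gene and is not given as the level of its mRNA. Of the other lists of markers, those of root (4 genes) summed to 10 to 32 reads in every library, and those of seeds (*CRA1*, *CRU3*, *OLEO1*) to 0 to 6 reads except in quadruple mutant replicate 3, with 25, 116 and 9 reads. Whether these features bear on the results below was not tested.

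**Figure D1:**
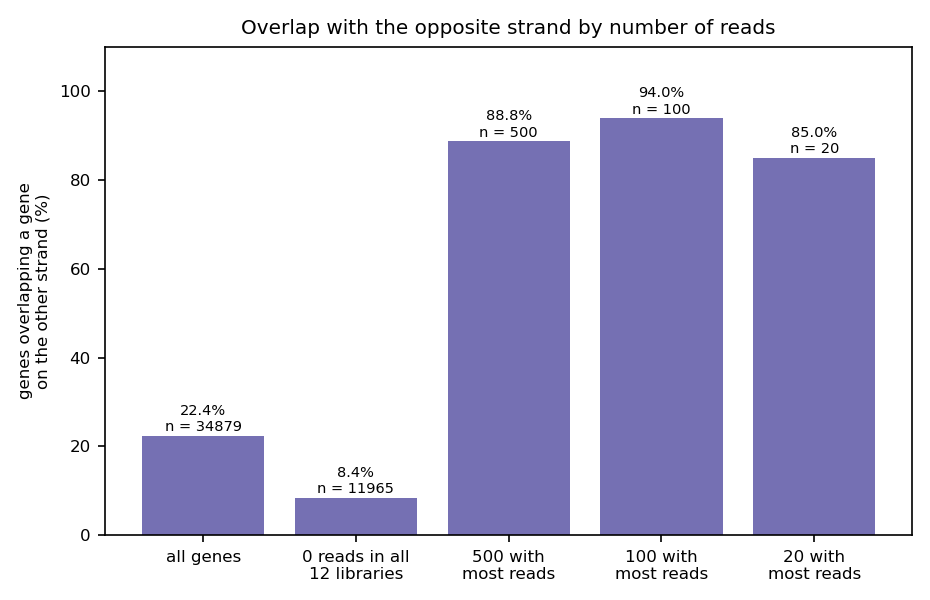
Share of genes (y axis, percent of genes) that overlap an annotated gene on the other strand, for all annotated genes, genes without reads, and the 500, 100 and 20 genes with the most reads summed over 12 libraries (bars; n is the number of genes). The bars for genes with the most reads stand at 85.0% to 94.0%, against 22.4% for all genes.

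Of the 9 genes, 4 overlapped an annotated gene on the other strand (*RCA* by 3 bp, *PRK* by 33 bp, *GOX1* by 21 bp and *CAT2* by 95 bp), and the partner genes had 0 to 8 reads in any library. *GAPA* and *CA1* overlapped a neighbour on their own strand, *LWD2* and *LSF1*, with at most 7 reads. *FBA1*, *FBA2* and *SHM1* overlapped no gene. The wider pathway held different cases: *HCEF1*, the chloroplast fructose bisphosphatase, had 1 to 22 reads in the 11 libraries other than titled *h1.1 h1.2* replicate 1, while AT3G54060, which overlaps it by 167 bp on the other strand, had 67 to 247. That pair was chosen after its values were seen.

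Reads on related copies can be told apart only where the copies differ. The coding sequences of *GOX1* and its neighbour *GOX2* were 90.6% identical, the closest pair examined, and those of *FBA1* and *FBA2* were 82.9% identical. The same 60 coding bases of each pair are shown because they carry the differences that separate the copies, with differing bases in capitals (RefSeq annotation, build TAIR10.1, each on the strand of its gene). The *GOX1* stretch lies at chr3:4822456-4822515 (plus strand) and that of *GOX2* at chr3:4819304-4819363 (plus strand), with 5 differences. Those of *FBA1* at chr2:9129710-9129769 (minus strand) and *FBA2* at chr4:18165041-18165100 (minus strand) have 13.
GOX1: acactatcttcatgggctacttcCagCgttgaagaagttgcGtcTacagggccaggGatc
GOX2: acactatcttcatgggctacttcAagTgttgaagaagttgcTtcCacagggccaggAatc
FBA1: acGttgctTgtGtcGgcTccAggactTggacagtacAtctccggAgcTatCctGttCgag
FBA2: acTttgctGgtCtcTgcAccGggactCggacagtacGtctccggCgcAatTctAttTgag

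Only uniquely mapped reads had been kept by the authors. For the 9 genes, 95.5% (*GOX1*) or more of all 31-bp stretches of exon occurred once in the genome, so nearly all of their length could receive reads. *PGLP1*, phosphoglycolate phosphatase, had 0 reads in all 12 libraries, and none of its 1817 stretches (0) occurred once, so its reading is no measure of the gene. *GOX1* and *GOX2* counts remain less certain than those of the other genes.

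The bases before the annotated gene starts shared little. In the 250 bases upstream, the G-box CACGTG was found on either strand in 1 of the 9 genes (6.49% of 27443 promoters) and the I-box GATAAG on either strand in 1 (12.3%). Both motifs are known from light-responsive plant promoters, and neither overlaps the other here. The evening element AAATATCT, searched on both strands, was in 0 of the 9 (4.79% of promoters), and TATAAA on the coding strand in 3 (32.9%), those of *FBA1*, *FBA2* and *SHM1*. The 200 bases upstream of *RCA* (chr2:16573693-16573892, minus strand) and *PRK* (chr1:11531999-11532198, plus strand) are shown as the ones with a light motif, given in capitals, in TAIR10.1. A match is a description of the letters only.
RCA: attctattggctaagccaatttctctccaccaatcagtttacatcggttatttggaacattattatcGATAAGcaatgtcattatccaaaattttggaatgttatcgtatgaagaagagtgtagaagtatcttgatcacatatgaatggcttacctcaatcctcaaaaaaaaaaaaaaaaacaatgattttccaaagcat
PRK: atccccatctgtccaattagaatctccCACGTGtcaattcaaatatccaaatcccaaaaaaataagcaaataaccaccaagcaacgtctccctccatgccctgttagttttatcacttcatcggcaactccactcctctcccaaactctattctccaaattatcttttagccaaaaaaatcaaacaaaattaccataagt

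The 9 genes together were dominated by a pair of libraries. They took 0.617% of the reads on genes (Wilson 95% interval 0.598% to 0.636%) in titled *h1.1 h1.2* replicate 1, and 0.129% (0.120% to 0.138%) in replicate 3 of that set. In the 10 other libraries the share was 0.0149% to 0.0406%, and titled *h1.1 h1.2* replicate 2 lay among them at 0.0229% (interval 0.0191% to 0.0274%). In reads, the sums were 4080 in replicate 1, 769 in replicate 3, 117 in replicate 2 and 79 to 208 in the 9 libraries of the other sets. The set titled *h1.1 h1.2* therefore did not behave as 1 group for these genes. Intervals cover counting error only.

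Replicates 1 and 3 stood apart in other ways too. They had reads on 17286 and 13676 genes, against 9813 to 12585 in the other libraries, and 2.38% and 2.07% of their reads were assigned to genes, against 1.56% to 1.92%. Genes that overlap a gene on the other strand took 68.0% of the reads on genes in replicate 1, below every other library. By this measure replicate 3 did not stand apart, at 77.2% within the 75.8% to 82.7% of the other 10 libraries. Markers of green tissue (*RBCS1A*, *RBCS1B*, *RBCS2B*, *RBCS3B*, *CAB1*, *LHCB2.1*, *LHCA1* and *PSBO1*, genes of Rubisco small subunits and of the photosystems) summed to 328 and 55.1 reads per 1000000 processed in replicates 1 and 3, against 4.64 to 8.52 in the other 10 libraries. All 8 markers had their highest CPM in replicate 1 and the next highest in replicate 3. The part of these features in the results below was not tested. In bulk RNA, fewer cells of a type and less RNA per cell cannot be told apart.

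**Figure D2:**
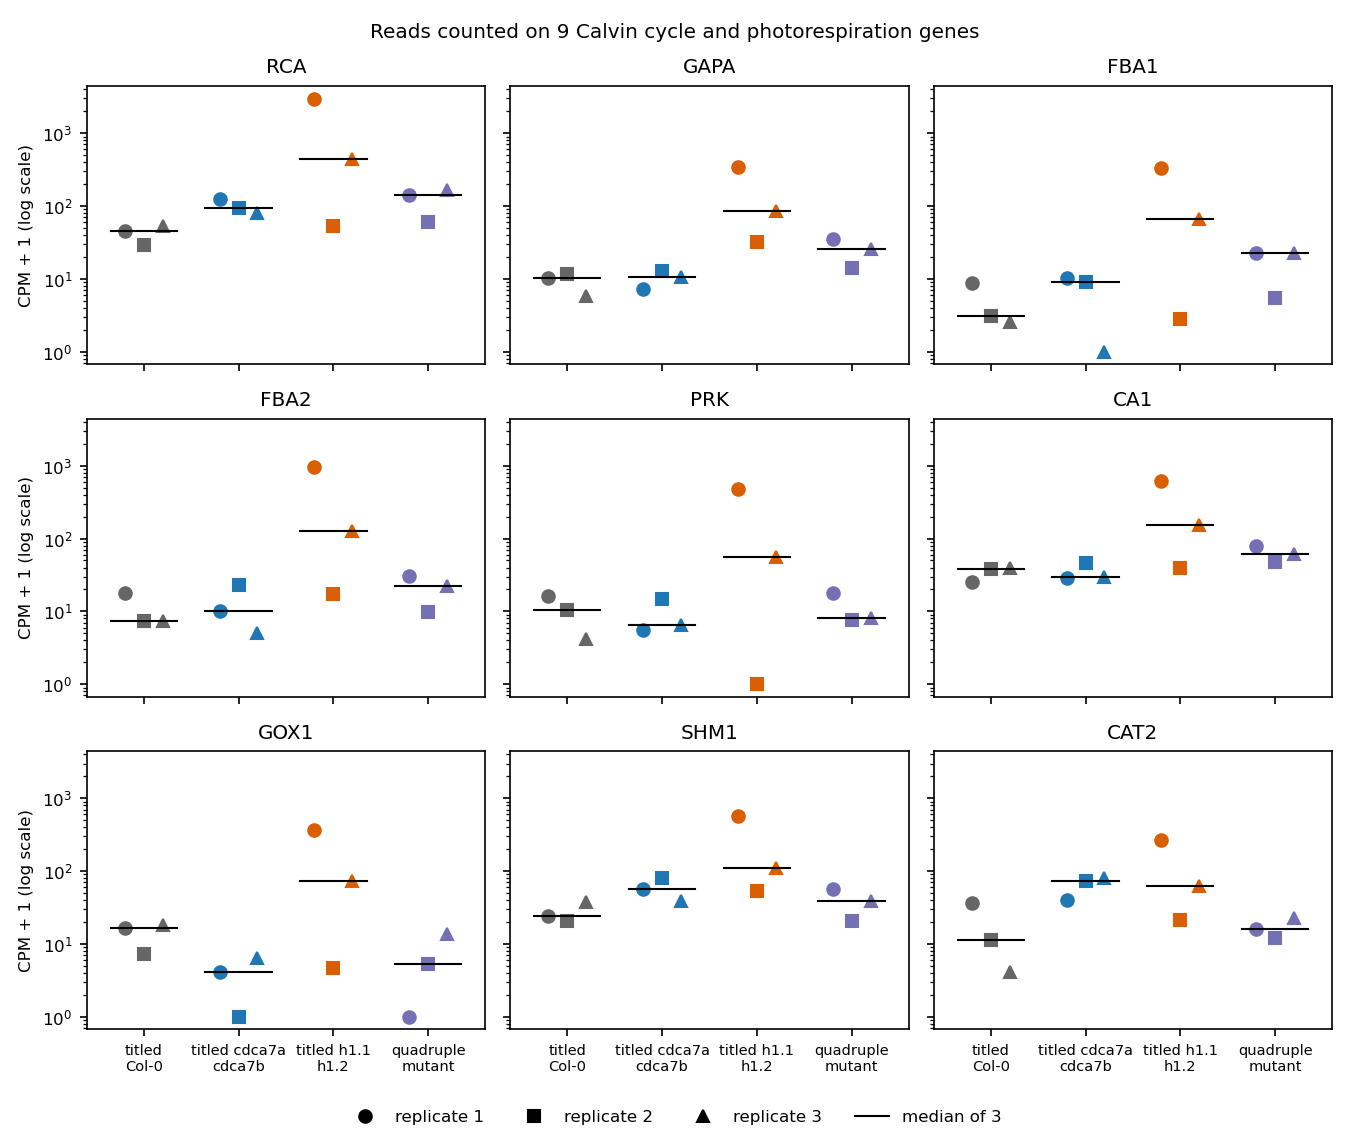
Level of the 9 genes in each of 12 libraries, as CPM (counts scaled to 1000000 reads on genes, with TMM-scaled library sizes) plus 1 on a log axis. Each point is a library, its shape the replicate number, and the line the median of 3 libraries. Titled h1.1 h1.2 replicate 1 has the highest point in every panel, from 268 CPM for CAT2 to 2978 CPM for RCA, while replicate 2 of that set lies with the other sets.

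Among the Calvin cycle genes, *RCA*, whose product frees Rubisco of inhibitory sugar phosphates, had the most reads. It had 29, 27 and 33 reads in titled Col-0, 79, 47 and 58 in titled *cdca7a cdca7b*, 1758, 28 and 288 in titled *h1.1 h1.2*, with 65, 27 and 92 in the quadruple mutant (replicates 1, 2 and 3 in this and all following lists). Titled *h1.1 h1.2* replicates 1 and 3 were above every other library, and replicate 2 lay within the range of titled Col-0 in CPM (counts scaled to 1000000 reads on genes). In replicate 1 *RCA* was the 35th gene by reads, and its level was 43.0 times the median of the 10 libraries other than replicates 1 and 3. Its mean was 1156 ± 1590 CPM in titled *h1.1 h1.2* and 41.7 ± 12.3 in titled Col-0 (SD, n = 3 each).

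*GAPA* encodes a subunit of the enzyme that reduces bisphosphoglycerate with NADPH. It had 6, 10 and 3 reads in titled Col-0, 4, 6 and 7 in titled *cdca7a cdca7b*, 200, 17 and 55 in titled *h1.1 h1.2*, with 16, 6 and 14 in the quadruple mutant. It was the one of the 9 whose 3 titled *h1.1 h1.2* libraries all lay above both the titled Col-0 and the titled *cdca7a cdca7b* libraries. In CPM, replicate 2 of that set (31.4) still lay below the highest quadruple mutant library.

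The aldolases join triose phosphates into sugar bisphosphates. *FBA1* had 5, 2 and 1 reads in titled Col-0, 6, 4 and 0 in titled *cdca7a cdca7b*, 198, 1 and 43 in titled *h1.1 h1.2*, with 10, 2 and 12 in the quadruple mutant. *FBA2* had 11, 6 and 4, then 6, 11 and 3, then 562, 9 and 84, then 14, 4 and 12 in the same order of sets. Both had their 2 highest libraries in titled *h1.1 h1.2*, and its replicate 2 was within the range of the other sets. In replicate 1 *FBA1* was 55.7 and *FBA2* 73.7 times the median of the other 10 libraries. The third plastid aldolase gene, *FBA3*, which was not among the 9, had 56 reads in replicate 1, 19 in replicate 3 and 0 to 2 elsewhere.

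*PRK* encodes the enzyme that rebuilds the CO2 acceptor of Rubisco. It had 10, 9 and 2 reads in titled Col-0, 3, 7 and 4 in titled *cdca7a cdca7b*, 282, 0 and 36 in titled *h1.1 h1.2*, with 8, 3 and 4 in the quadruple mutant. The set titled *h1.1 h1.2* thus held both its highest library and its lowest, where 0 reads allow a level of up to 5.53 CPM (3 counts). The ratio of replicate 1 to replicate 3, 8.74, was the highest among the 9 genes, which ranged from 4.06 (*GAPA*) upward with a median of 5.12.

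*CA1* encodes the main carbonic anhydrase of the chloroplast stroma, which interconverts CO2 and bicarbonate. It had 16, 35 and 24 reads in titled Col-0, 18, 23 and 21 in titled *cdca7a cdca7b*, 368, 21 and 101 in titled *h1.1 h1.2*, with 37, 21 and 34 in the quadruple mutant. Replicates 1 and 3 of titled *h1.1 h1.2* were the highest, at 16.2 and 3.99 times the median of the other 10 libraries.

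Among the photorespiration genes, *GOX1* encodes an enzyme that oxidizes glycolate in the peroxisome. It had 10, 6 and 11 reads in titled Col-0, 2, 0 and 4 in titled *cdca7a cdca7b*, 219, 2 and 48 in titled *h1.1 h1.2*, with 0, 2 and 7 in the quadruple mutant. Replicates 1 and 3 of titled *h1.1 h1.2* were again the highest, and their ratios to the median of the other 10 libraries, 75.3 and 14.8, were the largest among the 9 genes. The libraries at 0 allow levels of up to 5.94 CPM in titled *cdca7a cdca7b* and 6.39 CPM in the quadruple mutant. Its neighbour *GOX2* had 150 reads in titled *h1.1 h1.2* replicate 1, 30 in replicate 3 and 2 to 18 elsewhere.

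*SHM1* encodes the mitochondrial enzyme that makes serine from glycine after glycine decarboxylation. It had 15, 19 and 23 reads in titled Col-0, 36, 40 and 28 in titled *cdca7a cdca7b*, 335, 28 and 73 in titled *h1.1 h1.2*, with 26, 9 and 21 in the quadruple mutant. All 3 titled *h1.1 h1.2* libraries lay above titled Col-0 in CPM, but replicate 2 lay within titled *cdca7a cdca7b*.

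*CAT2* encodes the catalase that removes the hydrogen peroxide made by glycolate oxidase. It had 23, 10 and 2 reads in titled Col-0, 25, 37 and 59 in titled *cdca7a cdca7b*, 158, 11 and 41 in titled *h1.1 h1.2*, with 7, 5 and 12 in the quadruple mutant. It was the exception to the order seen in the other 8 genes, since titled *h1.1 h1.2* replicate 3 (62.3 CPM) was below the highest titled *cdca7a cdca7b* library (80.7 CPM). Replicate 1 was still the highest library, at 3.32 times the next of the 10 others, the smallest such ratio among the 9.

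Per kb of annotated exon, the median level over the 10 libraries other than titled *h1.1 h1.2* replicates 1 and 3 was highest for *RCA*, with 32.9 CPM per kb. *SHM1* (19.1), *CA1* (11.8), *CAT2* (7.54), *FBA2* (7.31), *GAPA* (6.38), *PRK* (3.63), *FBA1* (2.95) and *GOX1* (2.60) followed on the same scale. The ranges over these 10 libraries overlapped in all 8 pairs of neighbours in this order. In titled *h1.1 h1.2* replicate 1 the same scale ran from 96.7 CPM per kb (*CAT2*) to 1417 (*RCA*).

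For each comparison of sets, 1 edgeR fit of the counts in all 12 libraries gave a quasi-likelihood F test, and a gene was called at an adjusted p (Benjamini-Hochberg, over all 4461 genes tested) under 0.05 and a log2 fold change of at least 1 in size. In that fit all 9 genes had counts high enough to be tested. *GAPA*, *FBA1*, *PRK* and *GOX1* passed only through the titled *h1.1 h1.2* libraries, the set in which they were high, since in the 9 other libraries 5 of the 9 genes passed the same filter. Counts and medians over the 9 are therefore given as descriptions. The calls and adjusted p of *GAPA*, *FBA1*, *PRK* and *GOX1* below are likewise descriptions and no support.

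The largest differences were between titled *h1.1 h1.2* and titled Col-0 (by table names, *cdca7a cdca7b* against *h1.1 h1.2*). Of the 9 genes, 6 were called higher and 0 lower, where 2.82% of all tested genes were called higher and 1.12% lower. *FBA2* rose by 5.22 on the log2 scale (SE 1.08, edgeR adjusted p = 0.0170), *FBA1* by 5.12 (SE 1.26, adjusted p = 0.0337) and *RCA* by 4.80 (SE 0.97, adjusted p = 0.0157). *GAPA* rose by 4.15 (SE 0.74, edgeR adjusted p = 0.0118), *SHM1* by 3.21 (SE 0.70, adjusted p = 0.0221) and *CA1* by 3.03 (SE 0.68, adjusted p = 0.0244). *PRK* (4.22, edgeR adjusted p = 0.0561), *GOX1* (3.54, adjusted p = 0.0712) and *CAT2* (2.84, adjusted p = 0.0615) missed the threshold. The median over the 9 was 4.15, against 0.03 over all tested genes. For *GAPA*, *CA1* and *SHM1* every titled *h1.1 h1.2* library was above every titled Col-0 library in CPM, as was so for 9.95% of tested genes. For *CA1* this rested on the scaling, since replicate 2 had 21 reads and titled Col-0 had 16, 35 and 24.

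These calls rested on few libraries. Without titled *h1.1 h1.2* replicate 1, the calls fell to 2 (*RCA* at 2.56 and *GAPA* at 2.76), and without replicates 1 and 3, an alternative added after the data were seen, to 0 with a median log2 difference of 0.33. Without any 1 of the 3 titled Col-0 libraries 0 of the 9 were called, as in a fit of only the 6 libraries compared, and without titled *h1.1 h1.2* replicate 2 all 9 were. The tally over all genes moved with them. Of tested genes, 0.0933% to 0.131% were called higher without a titled Col-0 library and 0.337% in the fit of 6 libraries. The share was 0.625% without replicate 1 and 10.3% without replicate 2.

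Titled *h1.1 h1.2* against titled *cdca7a cdca7b*, which by table names is *cdca7a cdca7b* against Col-0, shares the titled *h1.1 h1.2* libraries with the comparison above. Of the 9 genes, 4 were called higher and 0 lower, where 2.02% of all tested genes were called higher and 0.157% lower. They were *GOX1* (5.50, SE 1.25, edgeR adjusted p = 0.0378), *FBA2* (5.02, SE 1.08, adjusted p = 0.0344), *GAPA* (4.03, SE 0.75, adjusted p = 0.0237) and *CA1* (3.01, SE 0.69, adjusted p = 0.0378), as log2 differences. *RCA* (3.56, edgeR adjusted p = 0.0520), *FBA1* (4.57, adjusted p = 0.0612), *PRK* (4.50, adjusted p = 0.0654), *SHM1* (2.09, adjusted p = 0.114) and *CAT2* (0.86, adjusted p = 0.625) were not called. Only for *GAPA* was every titled *h1.1 h1.2* library above every titled *cdca7a cdca7b* library in CPM (9.26% of tested genes, and 7.96% in the other direction). Without titled *h1.1 h1.2* replicate 1, 0 of the 9 were called higher (0.437% of tested genes) and the *CAT2* difference became -0.64. Without replicates 1 and 3 the median of 4.03 became -0.15. Leaving out any 1 library of titled *cdca7a cdca7b* also gave 0 calls (0.0925% to 0.149% of tested genes higher). Leaving out replicate 1 or 2 of titled Col-0 gave 0 as well (0.187% and 0.189%). Without titled Col-0 replicate 3 the count was 1 (0.374%), as it was without quadruple mutant replicate 1 or 2 (0.318% and 0.335%). Without titled *h1.1 h1.2* replicate 2 it was 8, where 9.53% of tested genes were called higher. With all libraries the count was 8 with DESeq2 (4.65% of tested genes higher) and 7 without a composition factor (3.61%). It was 0 in a fit of only the 6 libraries compared (0.246%).

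**Figure D3:**
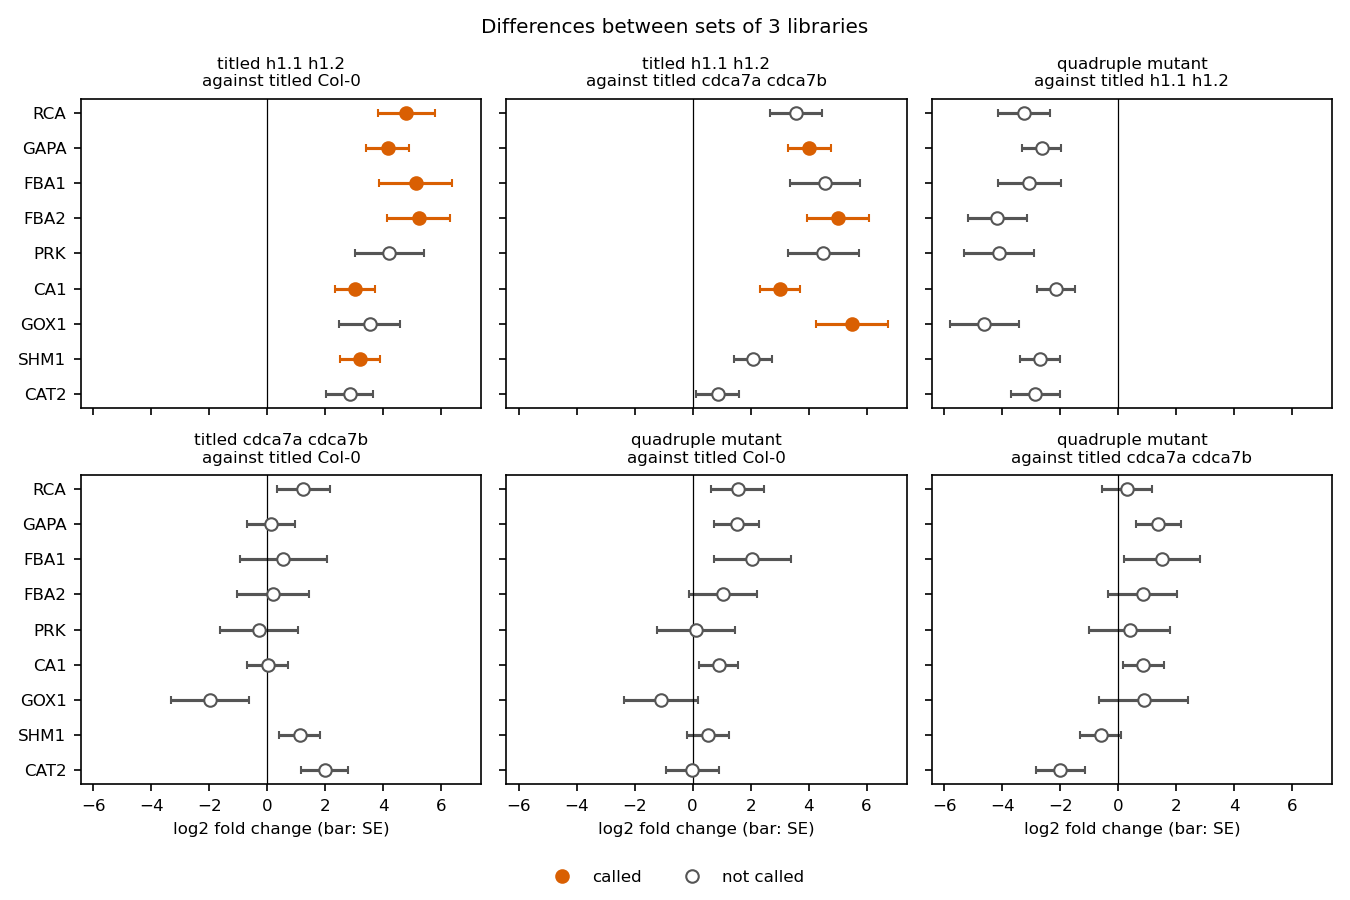
Log2 fold change of the 9 genes in the 6 comparisons of sets titled as shown (points; bars are the standard error of the edgeR fit; filled points were called). All 9 points lie above 0 in titled h1.1 h1.2 against titled Col-0 and against titled cdca7a cdca7b, with 6 and 4 called, and all 9 lie below 0 in the quadruple mutant against titled h1.1 h1.2, with 0 called.

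In the quadruple mutant against titled *h1.1 h1.2* (table names: the quadruple mutant against *cdca7a cdca7b*), 0 of the 9 genes were called by edgeR, where 0.179% of tested genes were called lower, and 7 by DESeq2, where 2.4% were. The log2 differences ran from -4.61 (*GOX1*) to -2.13 (*CA1*), with adjusted p from 0.0765 (*FBA2*, -4.17, SE 1.02) to 0.216 (*FBA1*). At an unadjusted p under 0.05 there were 9 lower, against 7.35% of tested genes. In CPM the sets overlapped for all 9, whereas 7.53% of tested genes were without overlap higher and 6.34% lower. Without titled *h1.1 h1.2* replicate 2 all 9 were called lower, with 6.26% of tested genes. The median over the 9, -3.06, became -1.26 without replicate 1, with 0 called lower (0.208% of tested genes). It became 0.59 without replicates 1 and 3, where 6 of the 9 estimates were positive.

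Between titled *cdca7a cdca7b* and titled Col-0 (table names: Col-0 against *h1.1 h1.2*), the 9 genes showed no call in either direction with edgeR or DESeq2 (0, and 1 at an unadjusted p under 0.05), where 0.0448% of tested genes were called higher and 0.381% lower. Log2 differences were 1.98 (SE 0.81) for *CAT2*, 1.25 (SE 0.91) for *RCA*, 1.12 (SE 0.70) for *SHM1* and -1.96 (SE 1.35) for *GOX1*, and between -0.28 and 0.56 for the other 5. For these 4 genes the sets were without overlap in CPM, with *CAT2*, *RCA* and *SHM1* higher in titled *cdca7a cdca7b* (7.15% of tested genes in that direction) and *GOX1* lower (8.52%). Their edgeR adjusted p ran from 0.595 to 0.873. That fit took the spread of each gene from all libraries, including the widely differing ones titled *h1.1 h1.2*. These p therefore cannot show whether the differences exceed the spread between seedlings of the sets compared.

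The quadruple mutant was also set against titled Col-0 (table names: against *h1.1 h1.2*) and titled *cdca7a cdca7b* (table names: against Col-0). Both comparisons share the quadruple mutant libraries. In the first, 0 of the 9 were called by either tool (0 at an unadjusted p under 0.05; 0.0448% of tested genes higher, 0.0% lower), and *RCA* (1.55), *GAPA* (1.52) and *CA1* (0.89) had non-overlapping higher CPM (6.16% of tested genes, with 5.96% lower). In the second, 0 were called by either tool (1 at an unadjusted p under 0.05; 0.381% of tested genes higher, 0.0448% lower). There *GAPA* (1.39) and *CA1* (0.87) had non-overlapping higher CPM (8.41% of tested genes), and *CAT2* (-1.995, SE 0.84, edgeR adjusted p = 0.492) was lower in all 3 quadruple mutant libraries (6.37%).

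The difference of the CDCA7 effect without and with H1 was tested as an interaction. By titles it is the quadruple mutant against *h1.1 h1.2*, minus *cdca7a cdca7b* against Col-0. None of the 9 was called by edgeR (0, and 6 at an unadjusted p under 0.05 with a negative sign, as for 6.12% of tested genes), where 0.964% of tested genes were called higher and 0.112% lower. DESeq2 called 2 lower, with 0.899% of tested genes. The lowest edgeR adjusted p was 0.0640, for *CAT2* at -4.84 (SE 1.16). By table names, with the libraries taken as those names say, 0 were called by either tool (5 at an unadjusted p under 0.05; 0.0% of tested genes in either direction), and the lowest edgeR adjusted p was 0.541, for *GOX1* at -6.58. All 9 estimates were negative in both forms, which share the titled *h1.1 h1.2* libraries as a term, and their sign rested on replicates 1 and 3 of that set. The median over the 9 went from -3.81 to -1.67 without replicate 1 and to 0.02 without both by titles, and from -2.51 to -0.62 and 0.68 by table names. Without replicate 2, 5 of the 9 were called lower by titles (2.14% of tested genes) and 1 by table names (0.539%).

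**Figure D4:**
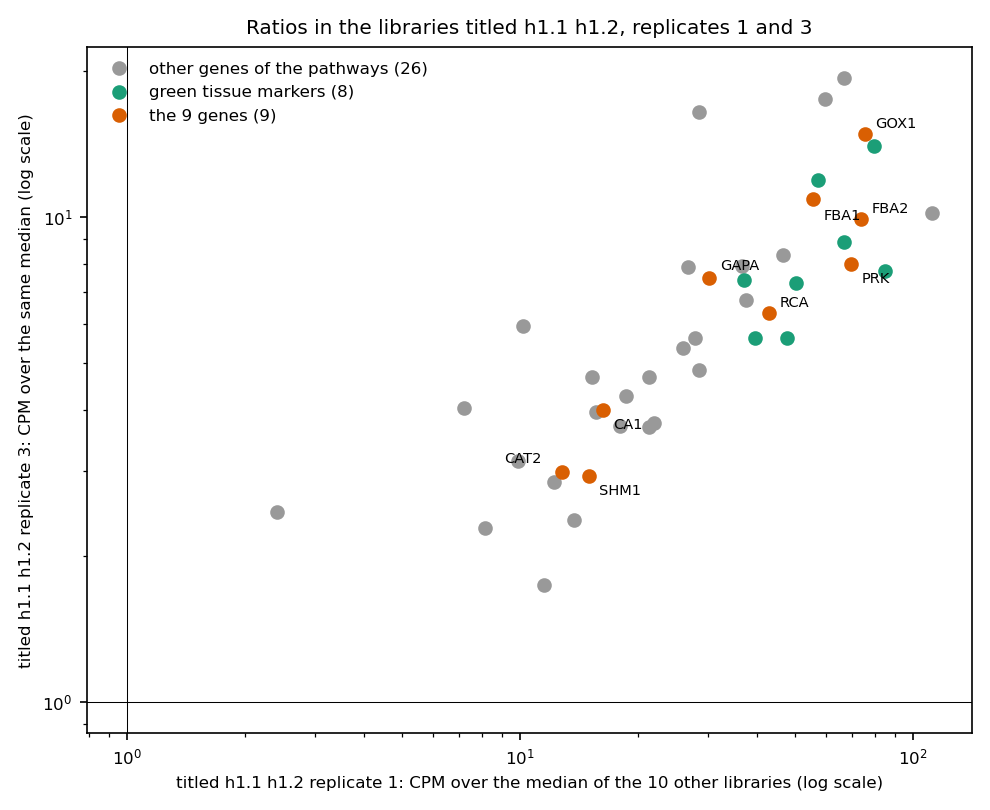
Level in titled h1.1 h1.2 replicate 1 (x axis) and replicate 3 (y axis), each divided by the median CPM of the 10 other libraries, on log axes. Points are the 9 genes, 26 other genes of the pathways with a median above 0, and 8 green tissue markers. The 9 genes lie at 12.8 to 75.3 in replicate 1 and 2.92 to 14.8 in replicate 3, among the markers and the other pathway genes.

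The other genes of both pathways gave a similar picture. Of 36 listed, 35 had a read in some library and 19 passed the filter, 11 of them also in the 9 libraries outside titled *h1.1 h1.2*. Among the 12 genes called, *GAPA2*, *GAPB*, *CP12-1*, *GOX2* and *GDCH* passed only through that set, so their calls are descriptions and no support. Of these 19, 11 were called higher in titled *h1.1 h1.2* against titled Col-0 (2.82% of all tested genes) and 9 against titled *cdca7a cdca7b* (2.02%). In either comparison 0 were called lower (1.12% and 0.157% of all tested genes). By edgeR 0 were called in the remaining comparisons, whose shares over all tested genes are given above. The medians over the 19 were 3.51 and 3.06 on the log2 scale, against 0.03 and 0.05 over all tested genes. Of the 35 genes with a read, 33 had their highest CPM in titled *h1.1 h1.2* replicate 1, as did 9 of the 9 genes and 19.0% of all tested genes.

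In the Calvin cycle, *GAPA2* and *GAPB*, the further subunits of the dehydrogenase, rose by 4.73 and 3.93 against titled Col-0 and by 4.28 and 4.53 against titled *cdca7a cdca7b* (edgeR adjusted p = 0.018 to 0.038). *CP12-1*, a small protein that binds this enzyme and phosphoribulokinase, rose by 3.67 and 4.29, and *PGK1*, phosphoglycerate kinase, by 4.23 and 3.57. *CA2*, a second carbonic anhydrase gene, rose by 3.18 and 3.90. In photorespiration, *GGT1* (peroxisomal glutamate:glyoxylate aminotransferase) rose by 3.51 and 2.98 and *GLDT* (the T-protein of glycine decarboxylase) by 3.73 and 2.71. *GS2*, the plastid glutamine synthetase that recaptures the ammonia released, rose by 4.43 and 4.01. *GDCH* (the H-protein of glycine decarboxylase) rose by 4.21 against titled Col-0 alone, and *GOX2* by 4.08 against titled *cdca7a cdca7b* alone. Adjusted p over these calls ran from 0.012 to 0.049 (edgeR). Replicate 2 of titled *h1.1 h1.2* did not share every rise. *GS2* had 382, 4 and 76 reads in that set and 9, 5 and 11 in titled Col-0. *GGT1* had 270, 25 and 52 against 14, 13 and 10. Every library of that set lay above every titled Col-0 library in CPM for 9 of the 19 tested genes. Against titled *cdca7a cdca7b* this held for 8. Over the 19, the median ratio to the median of the other 10 libraries was 18.6 in replicate 1 and 4.68 in replicate 3. Whether *GDCH* and *GOX2* differ between the comparisons was not tested, and *FBA3* and *PGLP1* above were named after their values were seen.

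The genes whose log2(CPM + 1) was most like the mean profile of the 9 over the 12 libraries were *PSBO1* and *RBCS3B* (Pearson r 0.983 each), *RBCS1A* (0.981), *LHCB5* and *LHB1B2* (0.977 each), genes of photosystem II, its antenna and Rubisco. These r values describe libraries that differ in depth and are carried by a few points: without titled *h1.1 h1.2* replicates 1 and 3 they were 0.585 to 0.779. Among the 36 pairs of the 9 genes the median r was 0.803 over 12 libraries and 0.240 over the remaining 10. *PSBO1* had 1335 and 309 reads in titled *h1.1 h1.2* replicates 1 and 3 and 19 to 36 in the other 10 libraries, and 54 of 4452 genes outside the 9 had an r over 0.9.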

How the data were processed

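Total RNA (500 ng per sample) of 14-day-old seedlings had been made into strand-keeping mRNA libraries. The authors trimmed reads with Trim Galore 0.6.7, aligned reads to TAIR10 with STAR 2.7.11a, kept uniquely mapped reads and deposited raw HTSeq counts per gene, without normalization. The 5 summary lines of each table were left out of library sizes (97.6% to 98.4% of reads fell in no feature). Tables of transposon counts were not used.

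Groups followed the titles. Tests on counts used edgeR 4.0.16 under R 4.3.3 (TMM, filterByExpr, quasi-likelihood, 4 group means, 12 libraries). CPM values used TMM-scaled library sizes. Motifs and copies were read with Python 3.11.15 and Biopython 1.88 from RefSeq TAIR10.1, where 34879 genes and all 9 members matched by locus tag.

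The members and lists were chosen with earlier results of these data known. Named genes were the 9, up to 10 called pathway genes with the largest differences, the 5 with the most similar profile, and genes overlapping a member. Alternatives were DESeq2 1.42.0, other scalings, no filter, 6-library fits, a replicate block and leaving out libraries. On simulated counts for titled *cdca7a cdca7b* against titled Col-0 (4166 genes), 47.9% of genes changed by log2 2 and 84.2% by log2 3 were called, with 4 false calls, and for titled *h1.1 h1.2* against titled *cdca7a cdca7b* (4206 genes) 58.1% and 87.4%, with 11 false calls. The simulation gave every library of a set the same change, around mean levels taken over all libraries. For the 9 genes the libraries titled *h1.1 h1.2* differed widely among themselves. These rates therefore do not describe how well differences in the 9 could be detected. Replicate numbers were not treated as pairs.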

Additional observations from a re-analysis of the deposited data

How the results depend on the processing

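Percentages in brackets here are the share of all tested genes called in the same direction in the same fit. For titled *h1.1 h1.2* against titled Col-0, 6 of the 9 genes were called higher (2.82%). The count was 0 when only the 6 libraries compared were fitted (0.337%) and 0 to 9 when 1 library was left out (0.0933% to 10.3%). Without replicates 1 and 3 of titled *h1.1 h1.2* the median log2 difference of the 9 was 0.33. Against titled *cdca7a cdca7b* the count of 4 (2.02%) became 8 with DESeq2 (4.65%), 7 without a composition factor (3.61%) and 8 without a filter on low counts (1.91%). It was 0 in the 6 libraries compared (0.246%), 1 with the replicate block (0.695%) and 0 to 8 when 1 library was left out (0.0925% to 9.53%). Without both replicates the median log2 difference was -0.15. For the quadruple mutant against titled *h1.1 h1.2* the count lower went from 0 (0.179%) to 7 with DESeq2 (2.4%), 1 without a composition factor (1.01%) and 9 without a filter (1.28%). It was 0 to 9 when 1 library was left out (0.0187% to 6.26%). The interaction by titles went from 0 lower (0.112%) to 2 with DESeq2 (0.899%), 1 without a composition factor (0.157%) and 5 without a filter (0.64%). It was 0 to 5 when 1 library was left out (0.0185% to 2.14%). By table names the interaction went to 4 lower without a filter (0.406%) and 0 to 1 when 1 library was left out (0.0% to 0.539%). Without a filter, 1 gene was called higher in titled *cdca7a cdca7b* against titled Col-0 (*CAT2*, 0.0778%) and 1 in the quadruple mutant against titled Col-0 (0.134%). In that setting 1 was called lower in the quadruple mutant against titled *cdca7a cdca7b* (0.0951%). That setting moved the median of all genes by 0.46, 0.61 and -0.46 in the first 3 comparisons above and by -0.44 and -0.72 in the interactions by titles and by table names, and leaving out the composition factor moved it by -0.17 for titled *cdca7a cdca7b* against titled Col-0 and by 0.12 and 0.11 for titled *h1.1 h1.2* and the quadruple mutant against titled *cdca7a cdca7b*, and by 0.17 and -0.18 in the interactions. The causes were not tested.

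Signs turned without replicates 1 and 3 of titled *h1.1 h1.2*, which left replicate 2 with 0 reads on *PRK*, 1 on *FBA1* and 2 on *GOX1*. Against titled Col-0 the log2 differences were then -0.93 for *FBA1*, -5.55 for *PRK* and -1.75 for *GOX1*. Against titled *cdca7a cdca7b* they were -0.93 for *RCA*, -1.50 for *FBA1*, -5.31 for *PRK*, -0.15 for *SHM1* and -1.66 for *CAT2* (-0.64 to 1.22 with 1 library left out). The *PRK* values are set by the fit: at a floor of 3 counts in the library, *PRK* was at least 1.68-fold and 1.44-fold lower, and with it there the medians of the 9 were as given except 0.67 for the interaction by table names. For the quadruple mutant against titled *h1.1 h1.2*, 6 of the 9 turned positive, among them *FBA2* at 0.24. The lone library left was assumed to vary like the others.

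With the replicate block, titled *h1.1 h1.2* against titled Col-0 gave 5 calls, where 1.86% of tested genes were called higher. The correlation of deviations between same-numbered libraries was -0.148 to 0.161 over 18 pairs, with 3 over 0.1. At counts this low, such values cannot show whether the numbers pair the libraries. As a share of all reads processed, the 9 genes took 0.000285% to 0.000725% in 10 libraries, 0.0147% in titled *h1.1 h1.2* replicate 1 and 0.00266% in replicate 3, the same order of those 2 above the rest. Levels of 10 reads or fewer, common for *GAPA*, *FBA1*, *FBA2*, *PRK* and *GOX1* outside those 2 libraries, limit what could be detected.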

Other observations

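The libraries at 0 for *GOX1* and the low titled *cdca7a cdca7b* values fall in a gene whose neighbour *GOX2* had 4, 3 and 4 reads there and 4, 13 and 18 in titled Col-0, given as values chosen after they were seen. The histone gene *H1.1* had 0 reads in all 3 libraries titled *cdca7a cdca7b* and 2 to 10 in those titled Col-0. In titled *h1.1 h1.2* it had 21, 1 and 0 reads, and in the quadruple mutant 4, 6 and 5. *H1.2* had 0, 1 and 2 reads in titled *cdca7a cdca7b*, 1, 15 and 7 in titled Col-0, 16, 3 and 9 in titled *h1.1 h1.2*, with 7, 0 and 10 in the quadruple mutant. *CDCA7a* had 2 to 10 reads in the libraries titled *cdca7a cdca7b* and Col-0, 0, 0 and 5 in titled *h1.1 h1.2* and 0 in the quadruple mutant. At these counts neither naming of the sets was checked.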
